A study of Arabidopsis thaliana with 15 samples.

Results

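Transcript levels of 4 genes for redox enzymes were followed in Arabidopsis thaliana leaves that lacked NHX5, NHX6 or both: the glutaredoxin genes AT1G06830, AT2G47880 and GRX480, and the methionine sulfoxide reductase gene MSRB6. The 4 genes were chosen by name and with earlier results of these arrays known, among the 13350 genes that had at least 1 probe set annotated to a single gene. Each had 1 such probe set, and all 4 were measured on every array. Because the choice drew on the same arrays, their values and differences are given below as a description, with no test. The words rose and fell are kept for other genes, which were tested.

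Leaves came from 5 genotypes in the Columbia background, with 3 biological replicates and 1 array for each replicate, 15 arrays in all. Wild type was compared with nhx5-2, a GABI T-DNA line, with nhx6-2, a SALK T-DNA line, and with nhx5-2/nhx6-2, which carried both of these insertions. The other double knockout, nhx5-1/nhx6-1, combined a WiscDsLox insertion in NHX5 with a different SALK insertion in NHX6, so the double knockouts shared no allele. Rosette leaves were taken at 4 weeks from plants on soil under 8 h of light and 16 h of dark. NHX5 and NHX6 are antiporters of endosomal membranes that move potassium or sodium ions in exchange for protons. Neither gene had a listed probe set, so the loss of their transcripts is not analysed here and the genotypes rest on the labels.

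Glutaredoxins are small proteins that use glutathione to reduce disulfide bonds in other proteins or to carry iron-sulfur clusters. Plants have a large class of their own, the CC-type, named for the cysteines of its active site. Some CC-type members bind TGA transcription factors, and some act as signals of nitrogen demand that travel from leaf to root. GRX480 (also called ROXY19) is a CC-type glutaredoxin induced by salicylic acid that interacts with TGA factors and can suppress the jasmonate-responsive defensin gene PDF1.2. Methionine sulfoxide reductases repair oxidised methionine, and the B type, to which MSRB6 belongs, acts on the R form with electrons from thioredoxin or glutaredoxin.

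The values are scores that behave like logarithms of an unstated base, and all differences are in these deposited units. On the hybridization spike-ins 1 unit stood for about 2.77-fold (0.681 units per doubling, SD 0.0281 over 15 arrays), and every fold below rests on that slope, which need not hold for dim transcripts. The arrays had medians between -0.32 and -0.22. The SD over probe sets was 0.767 on nhx5-1/nhx6-1 replicate 3 and 0.802 on nhx5-2 replicate 1, against 0.881 to 0.898 on the other arrays. The 3′ minus 5′ signal of the actin and GAPDH controls, a measure of RNA integrity and labelling, was 1.86 ± 0.10 in wild type (SD, n = 3), 1.51 ± 0.06 in nhx5-2, 1.61 ± 0.07 in nhx6-2, 1.98 ± 0.20 in nhx5-2/nhx6-2 and 2.34 ± 0.06 in nhx5-1/nhx6-1. It moved with genotype, and its part in the differences below was not tested except as a covariate. RNA came from whole leaves, so fewer cells of a type and less RNA per cell cannot be told apart for any gene.

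AT1G06830 was lower in both double knockouts than in any other genotype, and its 6 double knockout values lay below all 9 others. The share of all probe sets with such a split is not given. Wild type gave 1.04, 1.08 and 1.10 on replicates 1, 2 and 3. In nhx5-2 the values were 0.88, 1.01 and 0.72, and in nhx6-2 they were 1.00, 0.77 and 0.78. The single knockouts thus sat a little under wild type without overlap, and overlapped each other. The values in nhx5-2/nhx6-2 were 0.08, -0.04 and 0.02. In nhx5-1/nhx6-1 they were -0.0016, 0.005 and -0.24. The double knockouts overlapped each other, and the lowest value came from an array of low SD. By mean the order was wild type (1.07), nhx5-2 (0.87) and nhx6-2 (0.85), then nhx5-2/nhx6-2 (0.02) and nhx5-1/nhx6-1 (-0.08), with gaps free of overlap after wild type and after nhx6-2.

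The difference of AT1G06830 from wild type was -1.06 ± 0.08 in nhx5-2/nhx6-2 (SE of the limma model, 3 arrays per genotype), or 2.93-fold lower. In nhx5-1/nhx6-1 it was -1.15 ± 0.08. On replicate 3 of that genotype AT1G06830 lay above 26 of the 27 control probe sets without a target and 0.33 above their median, so no fold is given there, and without that array the difference was -1.07. The single knockouts differed from wild type by -0.21 and -0.23, each ± 0.08, for nhx5-2 and nhx6-2. All these comparisons share the wild type arrays. The sum of both single differences was -0.43, so nhx5-2/nhx6-2 lay further down than that sum by -0.63 ± 0.12. Against its own parents, nhx5-2/nhx6-2 differed by -0.85 from nhx5-2 and by -0.83 from nhx6-2. Among all 22746 probe sets tested, 17.6% lay lower without overlap in nhx5-2/nhx6-2 than in wild type, 15.1% in nhx5-1/nhx6-1, 8.47% in nhx5-2 and 8.09% in nhx6-2. Under the 24 alternative settings the difference of AT1G06830 ranged from -1.09 to -1.03 in nhx5-2/nhx6-2 and from -1.27 to -1.07 in nhx5-1/nhx6-1. The small single knockout differences ranged from -0.29 to -0.09 in nhx5-2, where -0.13 came from leaving out its replicate 3, and from -0.30 to -0.17 in nhx6-2.

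**Figure D1:**
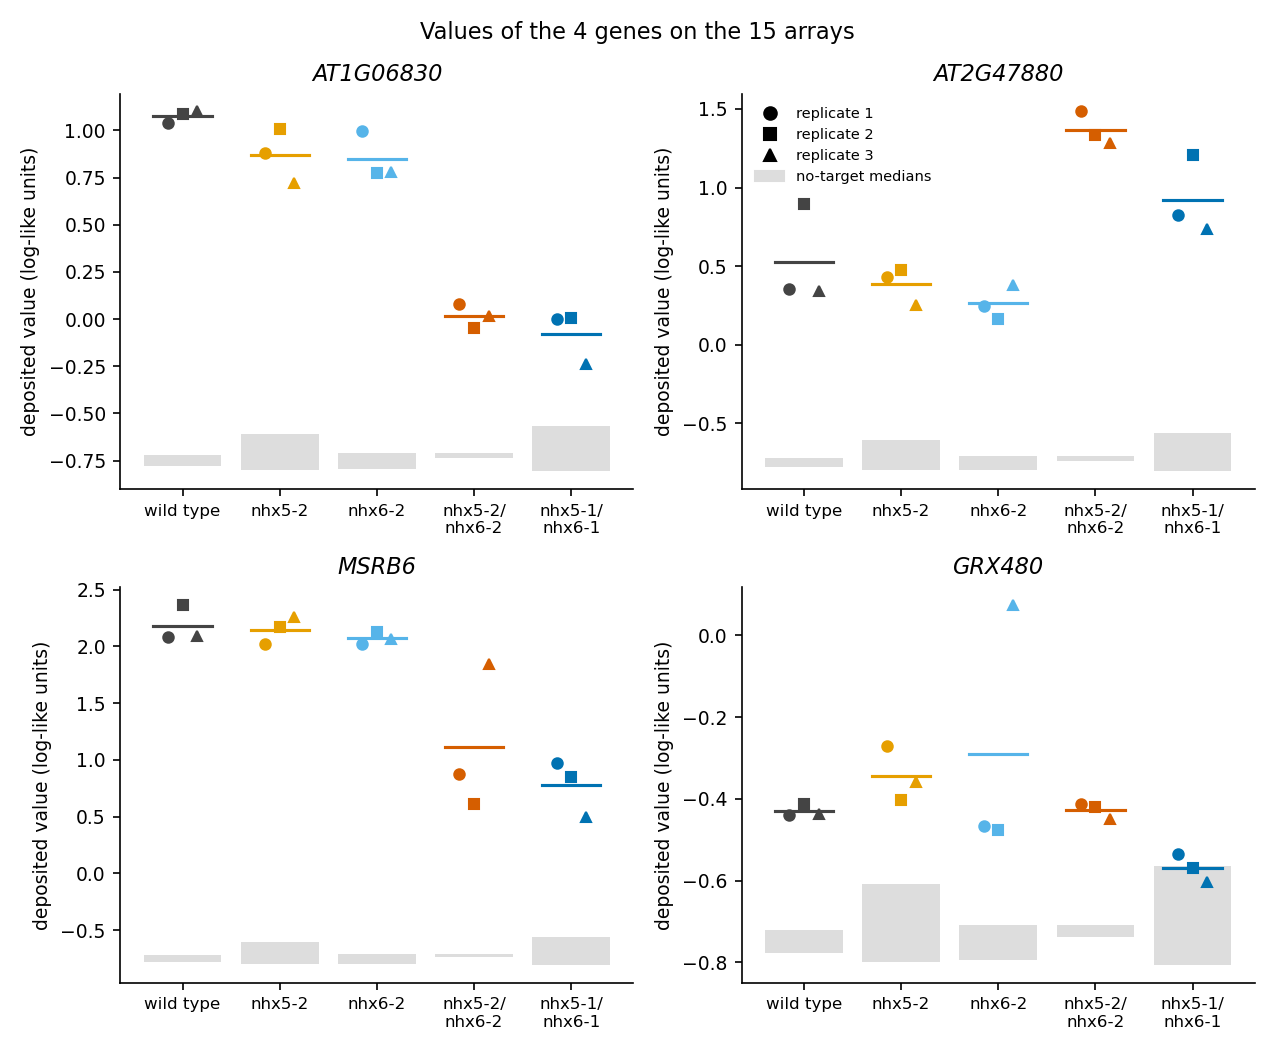
Deposited value (log-like units) of the 4 genes on each of the 15 arrays by genotype; marker shapes are replicates, coloured lines are genotype means, and grey bands span the medians of 27 control probe sets without a target. AT1G06830 and MSRB6 were low in both double knockouts, AT2G47880 was highest in nhx5-2/nhx6-2 (mean 1.37), and GRX480 lay near the grey band except on nhx6-2 replicate 3 (0.07).

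AT2G47880, the second CC-type gene, went the other way and was highest in nhx5-2/nhx6-2. The wild type values were 0.36, 0.89 and 0.34, so replicate 2 stood well above the other two. In nhx5-2 the gene gave 0.43, 0.47 and 0.25, and in nhx6-2 0.24, 0.17 and 0.38. These 3 genotypes overlapped one another. The values in nhx5-2/nhx6-2 were 1.48, 1.33 and 1.28, above every other array. Those in nhx5-1/nhx6-1 were 0.83, 1.20 and 0.74, above both single knockouts but overlapping wild type through its replicate 2. The share of all probe sets is not given for either of these splits. By mean the order was nhx5-2/nhx6-2 (1.37), nhx5-1/nhx6-1 (0.92), wild type (0.53), nhx5-2 (0.39) and nhx6-2 (0.26), and the neighbours in this order overlapped except for the first pair.

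Relative to wild type, AT2G47880 differed by 0.84 ± 0.14 in nhx5-2/nhx6-2, or 2.34-fold. The difference was 0.39 ± 0.14, or 1.49-fold, in nhx5-1/nhx6-1. Of all probe sets, 16.4% were higher without overlap in nhx5-2/nhx6-2 than in wild type and 11.1% in nhx5-1/nhx6-1. The difference in nhx5-1/nhx6-1 moved with the setting: it was 0.25 without replicate 2 of that genotype, 0.26 with arrays scaled to the same median absolute deviation, 0.75 with array weights and 0.18 with a covariate for the 3′ minus 5′ signal. It was 0.58 without wild type replicate 2. Directly compared, nhx5-1/nhx6-1 lay below nhx5-2/nhx6-2 by a difference of -0.44 ± 0.14 without overlap, as did 9.88% of all probe sets. That difference was -0.24 with array weights.

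The single knockouts differed from wild type in AT2G47880 by -0.14 ± 0.14 for nhx5-2 and -0.27 ± 0.14 for nhx6-2, both with overlap. Without wild type replicate 2 these became 0.04 and -0.08. Set against the single knockouts, nhx5-2/nhx6-2 was higher by 0.98 ± 0.14 than nhx5-2 (2.71-fold) and by 1.10 ± 0.14 than nhx6-2 (3.07-fold). In those comparisons 16.1% and 14% of all probe sets were higher without overlap. The sum of both single differences was -0.41, and the value in nhx5-2/nhx6-2 exceeded it by 1.25 ± 0.20. AT2G47880 and AT1G06830, both glutaredoxin genes, therefore lay on opposite sides of wild type in nhx5-2/nhx6-2, and neither stood at the sum of the single differences.

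**Figure D2:**
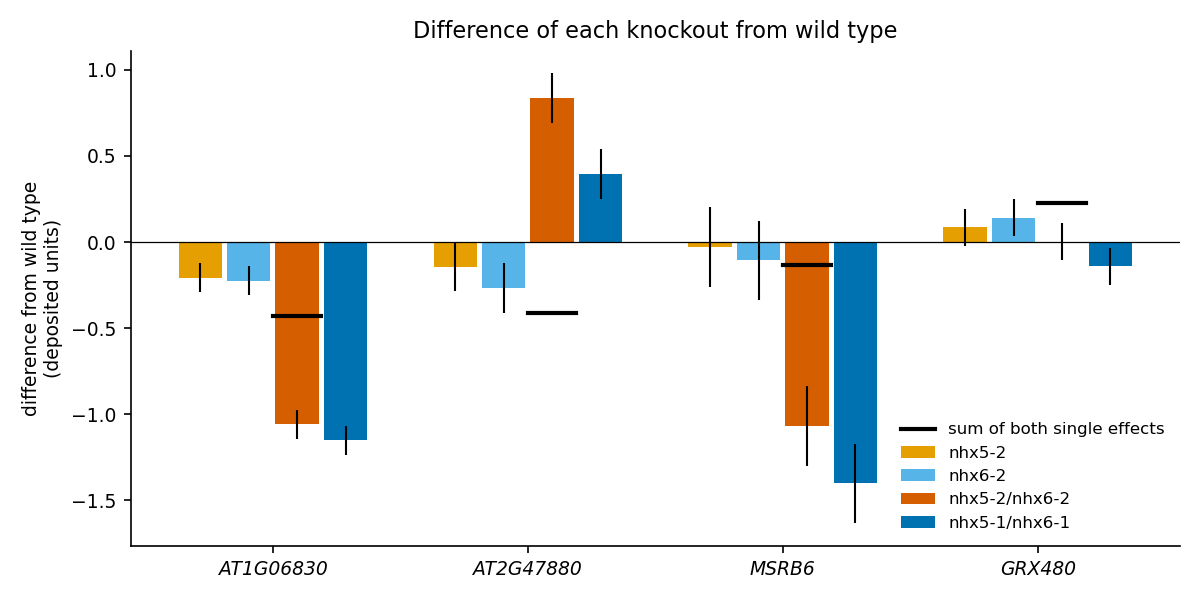
Difference from wild type in deposited units for each gene and knockout genotype, with bars for the difference, error bars for its SE (3 arrays per genotype) and black lines for the sum of both single knockout differences. In nhx5-2/nhx6-2 the bars reach -1.06 for AT1G06830, 0.84 for AT2G47880 and -1.07 for MSRB6, while the sums are -0.43, -0.41 and -0.14.

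GRX480, the glutaredoxin with a known place between salicylic acid and jasmonate signals, was dim on all arrays but nhx6-2 replicate 3. Wild type gave -0.44, -0.41 and -0.44, nhx5-2 gave -0.27, -0.40 and -0.36, and nhx6-2 gave -0.47, -0.48 and 0.07. The last value stood far above the others, and it set the mean of its genotype. In nhx5-2/nhx6-2 the values were -0.41, -0.42 and -0.45, inside or next to the wild type range. In nhx5-1/nhx6-1 they were -0.54, -0.57 and -0.60, below all other arrays. The share of all probe sets with that split is not given. The 27 control probe sets without a target had medians per array between -0.81 and -0.57. GRX480 exceeded all 27 of them on 14 arrays, and 11 of 27 on nhx5-1/nhx6-1 replicate 3, an array of low SD.

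The differences of GRX480 from wild type were 0.09 ± 0.11 in nhx5-2, 0.14 ± 0.11 in nhx6-2, 0.0029 ± 0.11 in nhx5-2/nhx6-2 and -0.14 ± 0.11 in nhx5-1/nhx6-1. The nhx5-2 values did not overlap wild type, as was true of 5.15% of probe sets in the upward direction. Without nhx6-2 replicate 3 the nhx6-2 difference became -0.04. The level in nhx5-1/nhx6-1 lay below wild type without overlap, as did 15.1% of all probe sets. It lay -0.14 ± 0.11 from nhx5-2/nhx6-2, also without overlap, as did 9.88% of probe sets in the downward direction. The deviation from additivity was -0.22 ± 0.15, and -0.04 without nhx6-2 replicate 3. At a level this close to the controls without target, differences of this size cannot be turned into folds. PDF1.2, the gene GRX480 can suppress, was the 1 gene of 7 in the jasmonate and ethylene list with a probe set annotated to it alone. It did not pass the test in any comparison. Its differences from wild type were 0.07 in nhx5-2, -0.02 in nhx6-2, 0.03 in nhx5-2/nhx6-2 and -0.07 in nhx5-1/nhx6-1, each ± 0.06. PDF1.2 was among the dimmest 40% of probe sets by mean, so a lowering might not be visible. Its relation to GRX480 was not tested.

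MSRB6, the methionine sulfoxide reductase, was lower in both double knockouts. Wild type gave 2.08, 2.36 and 2.09. The single knockouts gave 2.02, 2.17 and 2.26 for nhx5-2, and 2.02, 2.12 and 2.07 for nhx6-2. All 9 of these arrays lay within one narrow range, with the single knockouts overlapping wild type. In nhx5-2/nhx6-2 the values were 0.87, 0.61 and 1.84, and replicate 3 lay nearer to wild type than to its own group. In nhx5-1/nhx6-1 they were 0.98, 0.85 and 0.50. The double knockouts overlapped each other, and every value in them lay below every value of the other genotypes. Of all probe sets, 17.6% lay lower than wild type without overlap in nhx5-2/nhx6-2 and 15.1% in nhx5-1/nhx6-1. For the split of the 6 double knockout arrays from the 9 others no such share is given, here or for AT1G06830. By mean the order was wild type (2.18), nhx5-2 (2.15) and nhx6-2 (2.07), then nhx5-2/nhx6-2 (1.11) and nhx5-1/nhx6-1 (0.77), with 1 gap free of overlap, after nhx6-2.

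The difference of MSRB6 from wild type was -1.07 ± 0.23 in nhx5-2/nhx6-2, or 2.96-fold lower. It was -1.40 ± 0.23 in nhx5-1/nhx6-1, or 4.17-fold lower. In nhx5-2 and nhx6-2 it was -0.03 and -0.11, each ± 0.23. The size in nhx5-2/nhx6-2 turned on single arrays: it was -1.44 without replicate 3 and -0.82 without replicate 2 of that genotype. With a covariate for the 3′ minus 5′ signal it was -2.25 in nhx5-1/nhx6-1, and it turned to 0.60 in nhx5-2 and 0.34 in nhx6-2. MSRB6 in nhx5-2/nhx6-2 differed by -1.04 from nhx5-2 and by -0.96 from nhx6-2, where 13.4% and 12.9% of all probe sets were lower without overlap. The single differences summed to -0.14, and nhx5-2/nhx6-2 lay beyond that sum by -0.93 ± 0.33 (-2.21 with the covariate). Between the double knockouts the difference was -0.33 ± 0.23, and 0.03 without nhx5-2/nhx6-2 replicate 3.

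Across the 15 arrays AT1G06830 and MSRB6 followed each other at r = 0.90, and AT2G47880 ran against both, at -0.74 with AT1G06830 and -0.68 with MSRB6. GRX480 correlated at 0.39, -0.28 and 0.44 with AT1G06830, AT2G47880 and MSRB6. These values describe 15 points that share arrays and fall into genotype groups. After each genotype's mean was taken off, the correlations were 0.16 for AT1G06830 with MSRB6, 0.40 for AT1G06830 with AT2G47880 and 0.09 for AT2G47880 with MSRB6. What the 3 genes had in common over arrays was thus mostly the step between double knockouts and the other genotypes, not variation among replicates.

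**Figure D3:**
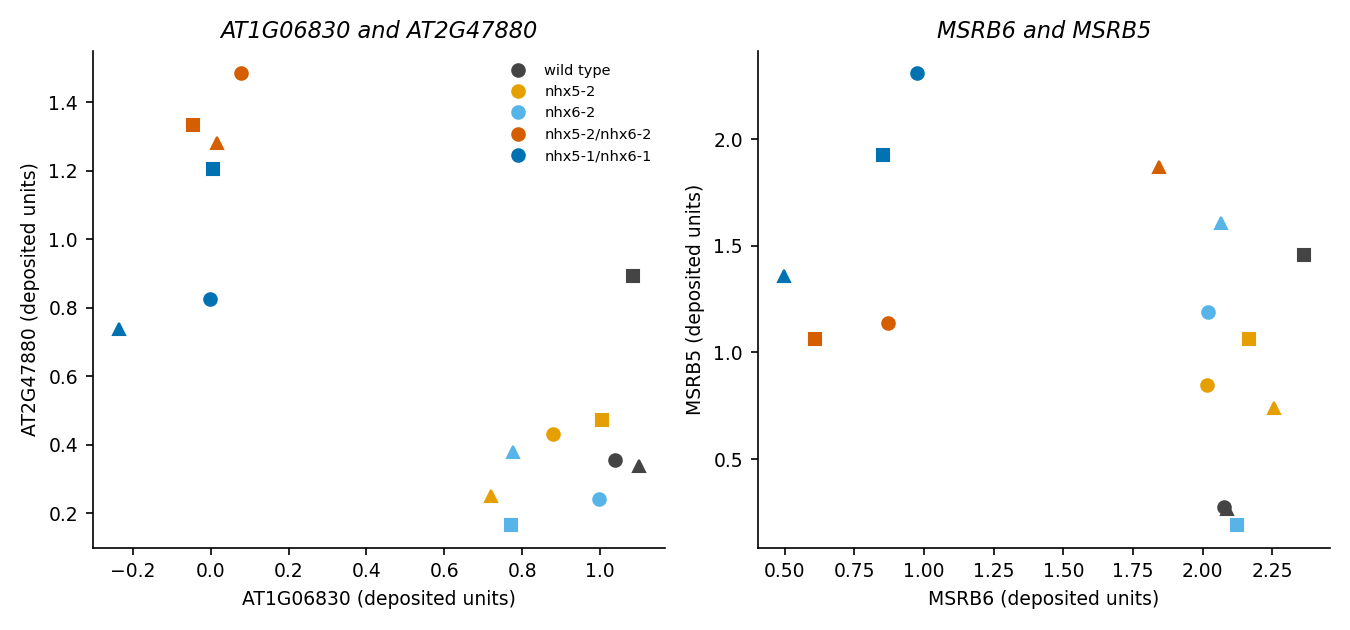
Left, AT1G06830 against AT2G47880, and right, MSRB6 against its chromosomal neighbour MSRB5, in deposited units; each point is 1 of the 15 arrays, coloured by genotype and shaped by replicate. The nhx5-2/nhx6-2 arrays lie at the upper left in the first panel, with AT1G06830 at 0.08 or less and AT2G47880 at 1.28 or more.

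For each gene the 5 other genes with the most similar profile over the 15 arrays were taken from the probe sets with a single gene. SWEET2, a sugar transporter of the vacuolar membrane, was most like AT1G06830 (r = 0.976), with means of 1.49 in wild type, 1.35 in nhx5-2, 1.19 in nhx6-2, 0.44 in nhx5-2/nhx6-2 and 0.37 in nhx5-1/nhx6-1. AT1G04040, AT5G12110, AT5G62730 and AT5G44020 followed at 0.955, 0.954, 0.952 and 0.949. Within genotypes SWEET2 and AT1G06830 correlated at 0.33, so this likeness too was mainly one of genotype means.

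The genes most like AT2G47880 were AT1G01250 (r = 0.958), AT1G22160 (0.957), AT4G14020 (0.953), AFR (0.944), a gene of the response to far-red light, and AT5G54855 (0.929). These genes also tracked AT2G47880 among replicates of a genotype, with correlations of deviations from the genotype means between 0.80 and 0.90. AT1G22160 had means of 0.49 in wild type, 0.53 in nhx5-2, 0.36 in nhx6-2, 1.56 in nhx5-2/nhx6-2 and 1.34 in nhx5-1/nhx6-1. MSRB6 was most like AT5G12980 (0.942), AT2G17240 (0.938), AT3G49720 (0.936), AT4G17245 (0.935) and AT2G03350 (0.930), whose deviations correlated with those of MSRB6 at 0.55 to 0.79. For GRX480 the genes were AT1G19210 (0.921), AT2G22880 (0.901), AT2G38240 (0.871), AT1G19020 (0.865) and AT1G20735 (0.864). They shared its high value on nhx6-2 replicate 3. AT2G22880, for one, was -0.67, -0.64 and -0.18 on the nhx6-2 arrays.

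The CC-type list held 21 genes, assigned by locus identifier from general knowledge of the family. Of these 17 had a probe set annotated to them alone, which is what measured means for list genes below. They included AT1G06830, AT2G47880 and GRX480, which left 14 for the test (limma, Benjamini-Hochberg adjusted over 22746 probe sets, threshold 0.05). In nhx5-2/nhx6-2 against wild type 2 of the 14 rose and 1 fell, where 9.81% of all probe sets passed, 4.27% upward and 5.54% downward. In nhx5-1/nhx6-1, where 12% passed, 5.13% upward and 6.9% downward, 1 rose and 3 fell. The median difference of the 14 was -0.02 and -0.07 in these comparisons, beside 0.0005 and 0.0061 for all probe sets. None of the 14 passed in nhx5-2 or nhx6-2, where 0.0659% and 0.29% of probe sets passed, in the comparison of the double knockouts (0.378%), or for the deviation from additivity (0.0967%). At an unadjusted p under 0.05 there were 1, 3, 1 and 7 of the 14 in these comparisons. There were 4 and 8 of the 14 in nhx5-2/nhx6-2 and nhx5-1/nhx6-1 against wild type, and 5 and 9 in nhx5-2/nhx6-2 against nhx5-2 and nhx6-2. The share of all probe sets at that looser threshold is not given. The unadjusted counts here and below therefore cannot show an effect of a family or its absence.

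AT4G33040 was the 1 CC-type gene outside the chosen ones that rose in both double knockouts. Its values were 0.53, 0.39 and 0.45 in nhx5-2/nhx6-2 and 0.31, 0.83 and 0.16 in nhx5-1/nhx6-1, against -0.09, 0.17 and -0.11 in wild type. The difference was 0.46 ± 0.13 in nhx5-2/nhx6-2 (adjusted p = 0.039) and 0.44 ± 0.13 in nhx5-1/nhx6-1 (adjusted p = 0.0436). These calls held in 14 and 8 of 24 alternatives. The first was lost without any 1 of 8 arrays, namely wild type replicates 1 and 3, nhx5-2 replicates 2 and 3, nhx6-2 replicate 1 and each nhx5-2/nhx6-2 array (adjusted p = 0.0505 to 0.160). The second was lost without any 1 of 12, which were all but wild type replicate 2 and nhx5-1/nhx6-1 replicates 1 and 3 (adjusted p = 0.0511 to 0.159). AT4G33040 was also higher in nhx5-2/nhx6-2 than in nhx5-2 by 0.49 (adjusted p = 0.045, with 5.45% of probe sets called) and than in nhx6-2 by 0.55 (adjusted p = 0.0322, 4.1% called), calls that held in 10 and 18 of 24 alternatives.

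AT4G15680 fell in both double knockouts, by a difference of -0.37 ± 0.11 in nhx5-2/nhx6-2 (adjusted p = 0.0443) and -0.36 ± 0.11 in nhx5-1/nhx6-1 (adjusted p = 0.0432). All 6 double knockout arrays lay between -0.32 and -0.30, while wild type gave -0.08, 0.32 and -0.06. The double knockout values were dim, near the medians of all probe sets on the arrays (-0.32 to -0.22). On nhx5-1/nhx6-1 replicate 3 AT4G15680 exceeded 25 of the 27 control probe sets without a target. Its calls held in 12 and 9 of 24 alternatives, and each was lost without any 1 of 10 arrays (adjusted p = 0.0501 to 0.156 over both). The arrays not needed were wild type replicate 1 and all of nhx6-2 for both calls, with nhx5-1/nhx6-1 replicate 3 for the first and nhx5-2 replicate 3 for the second. The gene belongs to a run of CC-type genes with no other protein-coding gene between them, AT4G15660 to AT4G15700. The other measured genes of that run, AT4G15660, AT4G15690 and AT4G15700, differed by -0.24, -0.23 and -0.02 in nhx5-2/nhx6-2 and by -0.35, -0.27 and -0.05 in nhx5-1/nhx6-1 and did not pass. Signal shared between close copies was not tested, since probe sequences were not used here.

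The remaining CC-type calls belonged to 1 double knockout each, and no difference between the double knockouts passed for them. AT3G62950 rose in nhx5-2/nhx6-2 by 0.36 ± 0.10 (adjusted p = 0.0333), and was 0.26 above wild type in nhx5-1/nhx6-1 (adjusted p = 0.117). AT5G18600 fell in nhx5-1/nhx6-1 with a difference of -0.68 ± 0.17 (adjusted p = 0.0196), and stood at -0.21 in nhx5-2/nhx6-2 (adjusted p = 0.642). AT2G30540 fell in nhx5-1/nhx6-1 with -0.39 ± 0.11 (adjusted p = 0.0374), and stood at -0.20 in nhx5-2/nhx6-2 (adjusted p = 0.401). The 3 calls held in 16, 16 and 13 of 24 alternatives. AT3G62950 lost its call without wild type replicate 1 or 3 or any nhx5-2/nhx6-2 array (adjusted p up to 0.159), and AT5G18600 without replicate 2 or 3 of wild type or of nhx5-1/nhx6-1 (up to 0.0709). AT2G30540 lost it without wild type replicate 2 or 3, any nhx5-2/nhx6-2 array, or nhx5-1/nhx6-1 replicate 1 or 3 (up to 0.131).

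The other CC-type genes did not pass against wild type. AT3G62960, next to AT3G62950, differed by 0.15 and 0.10 in nhx5-2/nhx6-2 and nhx5-1/nhx6-1, AT3G62930 by 0.02 and -0.07, AT1G03020 by 0.16 and 0.00, and AT5G11930 by 0.08 and 0.10. ROXY1 and ROXY2, which act in petal and anther development, differed by -0.03 and -0.06, and by -0.03 and -0.10. AT2G47880 adjoins another list gene, AT2G47870, for which no value was used here. Among the 17 measured genes of the family AT1G06830 (-1.06) had the lowest difference in nhx5-2/nhx6-2 and AT2G47880 (0.84) the highest. In nhx5-1/nhx6-1 AT1G06830 (-1.15) was again lowest, while AT4G33040 (0.44) lay above AT2G47880 (0.39). This order is a description, since AT1G06830 and AT2G47880 were chosen on these arrays.

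**Figure D4:**
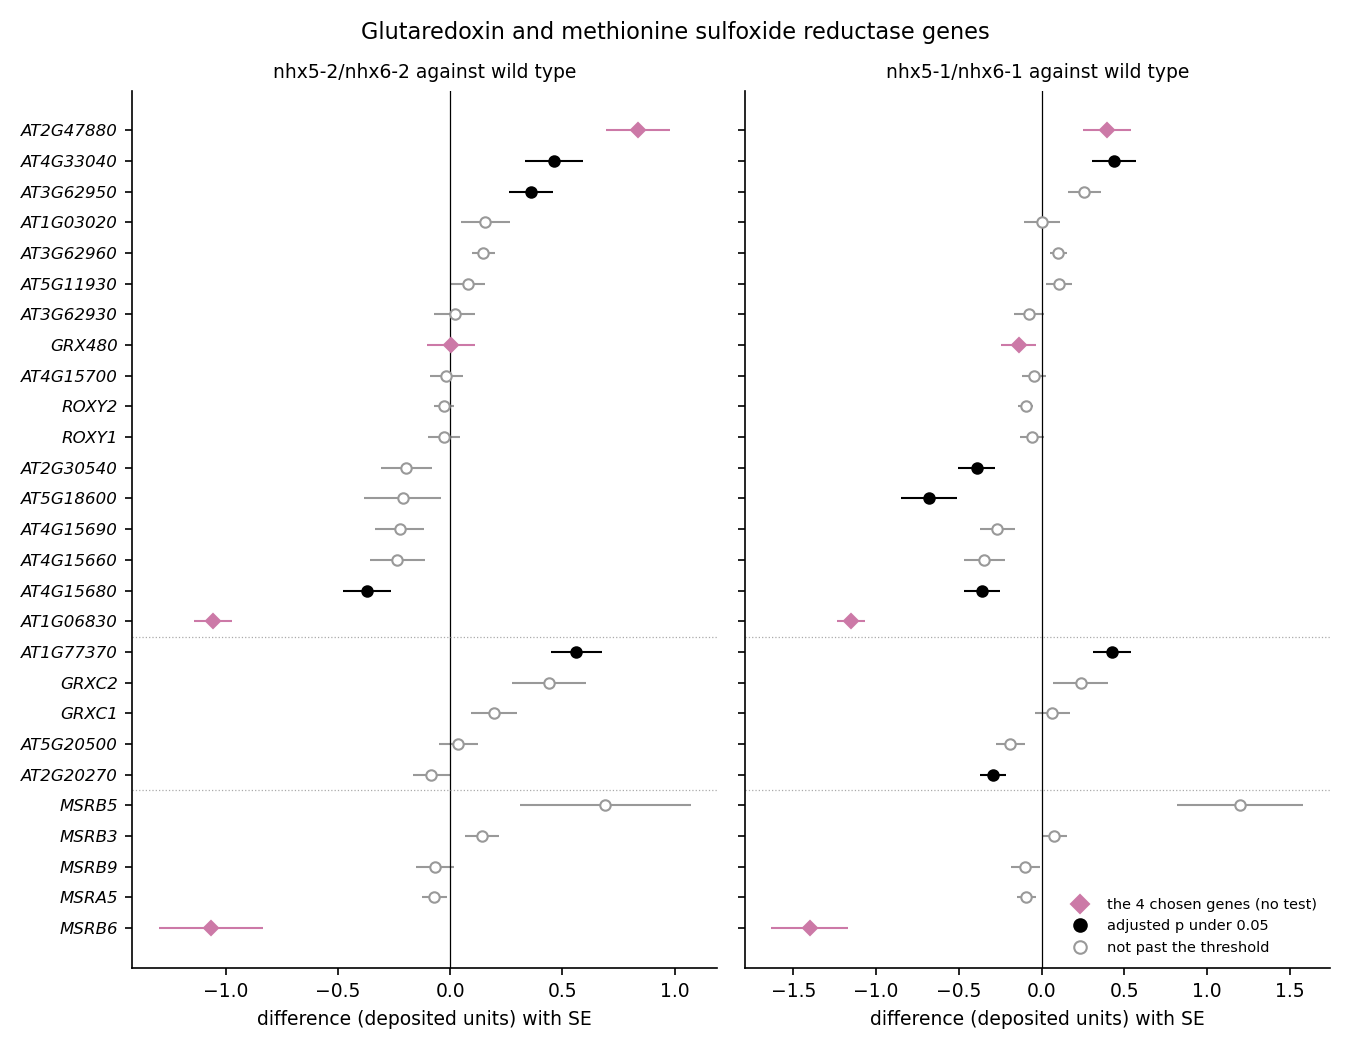
Difference from wild type (deposited units, with SE, 3 arrays per genotype) for all measured CC-type glutaredoxins (top), CPYC and CGFS glutaredoxins (middle) and methionine sulfoxide reductases (bottom) in nhx5-2/nhx6-2 (left) and nhx5-1/nhx6-1 (right). Diamonds are the 4 chosen genes, filled circles passed at an adjusted p under 0.05 and open circles did not; AT1G06830 and MSRB6 are lowest in both panels.

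The CPYC and CGFS glutaredoxins are the classes found in most organisms, and 5 of the 10 listed were measured. Against wild type 9.81% of all probe sets passed in nhx5-2/nhx6-2 and 12% in nhx5-1/nhx6-1. AT1G77370 rose in both double knockouts, by 0.56 ± 0.12 in nhx5-2/nhx6-2 (adjusted p = 0.0070) and 0.43 ± 0.12 in nhx5-1/nhx6-1 (adjusted p = 0.0288). Its values were 1.25, 1.25 and 1.37 in nhx5-2/nhx6-2 and 1.17, 1.16 and 1.14 in nhx5-1/nhx6-1, against 0.61, 0.95 and 0.62 in wild type. The first call held in 24 of 24 alternatives and the second in 15, being lost without wild type replicate 1 or 3 or any nhx5-1/nhx6-1 array (adjusted p = 0.0514 to 0.125). AT1G77370 was also above nhx5-2 by 0.55 (adjusted p = 0.0148) and above nhx6-2 by 0.45 (adjusted p = 0.0451), which held in 20 and 10 of 24 alternatives.

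AT2G20270 fell in nhx5-1/nhx6-1 with a difference of -0.29 ± 0.08 (adjusted p = 0.0314, and up to 0.107 without wild type replicate 1 or 2 or nhx5-1/nhx6-1 replicate 1 or 3), and differed by -0.08 in nhx5-2/nhx6-2. GRXC1, GRXC2 and AT5G20500 did not pass, at 0.19, 0.44 and 0.04 in nhx5-2/nhx6-2 and 0.07, 0.24 and -0.19 in nhx5-1/nhx6-1. The 5 genes had a median of 0.19 in nhx5-2/nhx6-2, and of 0.07 in nhx5-1/nhx6-1.

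Of 14 listed methionine sulfoxide reductases 5 were measured, and none of the 4 besides MSRB6 passed in limma in any comparison. Against wild type 9.81% of all probe sets passed in nhx5-2/nhx6-2 and 12% in nhx5-1/nhx6-1, so none of 4 is no result about the family. At an unadjusted p under 0.05 there was 1 of the 4, MSRB5 in nhx5-1/nhx6-1 against wild type. Their differences had a median of 0.04 in nhx5-2/nhx6-2, and of -0.0073 in nhx5-1/nhx6-1. MSRB5 lies next to MSRB6 with no protein-coding gene between them, and its values ran the other way in the double knockouts. Its wild type values were 0.27, 1.46 and 0.26, with replicate 2 far above the other two. They were 0.85, 1.06 and 0.74 in nhx5-2 and 1.19, 0.19 and 1.61 in nhx6-2. The double knockouts gave 1.14, 1.07 and 1.87 for nhx5-2/nhx6-2 and 2.31, 1.93 and 1.36 for nhx5-1/nhx6-1. Wild type overlapped both double knockouts.

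The difference of MSRB5 from wild type was 0.69 ± 0.38 in nhx5-2/nhx6-2 (adjusted p = 0.364) and 1.20 ± 0.38 in nhx5-1/nhx6-1 (adjusted p = 0.0571). The second value passed in 7 of 24 alternatives, with adjusted p = 0.0156 and a difference of 1.60 without wild type replicate 2. It was -0.16 with a covariate for the 3′ minus 5′ signal. The same wild type array was high for AT2G47880 (0.89) and MSRB6 (2.36). MSRB3, MSRB9 and MSRA5 differed by 0.14, -0.07 and -0.07 in nhx5-2/nhx6-2 and by 0.08, -0.10 and -0.09 in nhx5-1/nhx6-1.

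The enzymes that pass electrons to methionine sulfoxide reductases and glutaredoxins were measured in part. The counts below stand beside 9.81% of all probe sets called in nhx5-2/nhx6-2 and 12% in nhx5-1/nhx6-1 against wild type. None of 7 thioredoxins and thioredoxin reductases passed in nhx5-2/nhx6-2 (0 also at an unadjusted p under 0.05), and 1 fell in nhx5-1/nhx6-1, the thioredoxin gene THX with -0.35 ± 0.10 (adjusted p = 0.0453, held in 7 of 24 alternatives and lost without any 1 of 12 arrays, all but nhx5-2 replicates 1 and 2 and nhx5-1/nhx6-1 replicate 2, up to 0.153). Of 2 measured genes of glutathione synthesis and reduction, GR1, a glutathione reductase, fell in nhx5-1/nhx6-1 with -0.48 ± 0.09 (adjusted p = 0.0037) and stood at -0.20 in nhx5-2/nhx6-2 (adjusted p = 0.216). The other gene, GR, was above wild type by 0.32 in nhx5-2/nhx6-2 (adjusted p = 0.0886) and higher there than in nhx5-2 by 0.45 (adjusted p = 0.0288), a call lost without any 1 array of either genotype (up to 0.104). Of 3 peroxiredoxins, PRXIIF rose in nhx5-2/nhx6-2 by 0.31 ± 0.06 (adjusted p = 0.0046). AT3G11630 fell in nhx5-1/nhx6-1 with -0.50 ± 0.12 (adjusted p = 0.0133, and 0.0650 and 0.0707 without wild type replicates 1 and 3). No gene of the catalase, superoxide dismutase and ascorbate peroxidase list, or of the TGA and salicylic acid list, had a probe set annotated to it alone. Whether other probe sets of the array detect these genes was not examined. None passed in limma among the measured nitrogen genes AT4G32950 and NRT2.5 (0 at an unadjusted p under 0.05) or for the sulfate gene AT1G04770 (unadjusted p under 0.05 in nhx5-1/nhx6-1 against wild type). NRT2.5 was among the dimmest 40% of probe sets by mean, so a lowering of it might not be visible.

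Markers of single leaf cell types were few. Of 4 guard cell markers 2 were measured: AT1G22690 fell with -0.98 ± 0.11 in nhx5-2/nhx6-2 (adjusted p = 0.000157) and -0.46 ± 0.11 in nhx5-1/nhx6-1 (adjusted p = 0.0169, and 0.0631 and 0.0807 without wild type replicate 3 or nhx5-1/nhx6-1 replicate 1), whereas FMA differed by -0.03 and -0.0014. The low levels of AT1G06830 and MSRB6 thus coincided with a low level of 1 of 2 guard cell markers, and its part in them was not tested. The root marker PYK10 rose by 0.32 ± 0.07 in nhx5-1/nhx6-1 (adjusted p = 0.0072), from values of -0.77 to -0.67 in wild type to values of -0.45 to -0.32, near the level of the controls without target, and the other measured root marker did not pass. No phloem, trichome, flower or meristem marker had a probe set annotated to it alone. Measured genes other than the 4 chosen numbered 14 CC-type, 5 CPYC and CGFS and 4 methionine sulfoxide reductase genes. The other lists held 7 for thioredoxins, 3 for peroxiredoxins, 2 for glutathione, 1 for jasmonate, 2 for nitrogen, 1 for sulfate, 2 for guard cells and 2 for root. Of all these lists, 6 genes passed in nhx5-2/nhx6-2 and 11 in nhx5-1/nhx6-1 against wild type, where 9.81% and 12% of all probe sets passed. The lists were chosen with earlier results known, and their counts were not tested against these shares. With a covariate for the 3′ minus 5′ signal 4 of the 6 and 0 of the 11 still passed (limma, adjusted p = 0.204 to 0.9997 for the 11). Over all 22746 probe sets the number called went from 2232 to 1571 in nhx5-2/nhx6-2 with this covariate. In nhx5-1/nhx6-1 it went from 2736 to 24, so the loss was not particular to the listed genes. The 3′ minus 5′ signal was 2.27 to 2.40 on the nhx5-1/nhx6-1 arrays and at most 2.14 on any other array. The design therefore cannot tell the covariate apart from that genotype, and the cause of the lost calls was not tested.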

How the data were processed

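Biotin-labelled RNA from 6 µg of total leaf RNA was hybridized to Affymetrix Arabidopsis genome arrays, per the labels' protocols. The authors deposited 1 log-like score per probe set and array. Background correction, summarization, normalization and log base are not stated in any source used. The design assumed log2 values, and the deposited score was used unchanged. Of 22810 probe sets, 64 controls were left out, and 13513 of the 22746 tested had 1 gene in the annotation table given. Names and neighbours came from the TAIR10.1 gene table.

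A mean for each genotype was estimated from all 15 arrays with limma 3.58.1 in R 4.3.3 (lmFit, eBayes), with Benjamini-Hochberg adjustment over 22746 probe sets and a threshold of 0.05. The deviation from additivity is the wild type difference of nhx5-2/nhx6-2 less those of both single knockouts. The steps were tested on simulated data. With 3 arrays per genotype, whose number limits precision, an exact test cannot go below 0.1. Fold values divide differences by the spike-in slope, for which nominal concentrations were assumed. An older set of spike-in probe sets gave 3.09-fold per unit.

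Members and lists were chosen with earlier results of these data known. All measured genes of the 3 families were named, up to 4 genes of every other list called in a double knockout against wild type, and the 5 most correlated genes per member. FMA, PDF1.2, AT4G32950, NRT2.5 and AT1G04770 were named beside them as measured list genes that did not pass there, and GR after its values were seen. Alternatives were 3 normalizations, a filter on the dimmest 40% of probe sets, a replicate block, the 3′ minus 5′ covariate, fits on the compared groups alone, array weights, each array left out, and, chosen after seeing the data, both arrays of low SD left out.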

Additional observations from a re-analysis of the deposited data

Results flagged for a closer look

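PRXIIF, a peroxiredoxin gene of the mitochondrion, differed between the double knockouts by -0.36 ± 0.06 (nhx5-1/nhx6-1 minus nhx5-2/nhx6-2, limma, adjusted p = 0.0230, n = 3 arrays each). It was below in all 3 arrays, and the call was lost without any 1 of the nhx5-2/nhx6-2 arrays or without nhx5-1/nhx6-1 replicate 1 (adjusted p = 0.0632 to 0.138). The call was also lost with the 3′ minus 5′ covariate (limma, adjusted p = 0.53), the compared groups alone (0.16) and array weights (0.22). It held in 17 of 24 alternatives.

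For AT2G47880, loss of NHX6 went with a mean difference of -0.27 where NHX5 was present and 0.98 where it was absent. Loss of NHX5 went with -0.14 where NHX6 was present and 1.10 where it was absent. Without wild type replicate 2 the first of each pair became -0.08 and 0.04, so the opposite signs for loss of NHX5 rest on that array, and with array weights the latter was 0.05. For GRX480, loss of NHX5 went with 0.086 where NHX6 was present and -0.14 where it was absent. The second value became 0.04 without nhx6-2 replicate 3, so these opposite signs rest on that array. For both genes the difference between the effects was not tested, since the genes were chosen on these arrays.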

How the results depend on the processing

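Under 24 alternatives no called difference changed sign. THX in nhx5-2/nhx6-2 against nhx5-2, not called, was -0.13 with array weights and passed there, with the opposite sign. The differences of the 4 members moved by over 1 SD of replicates in 26 values and by less in 742, and the former included -1.27 for AT1G06830 in nhx5-1/nhx6-1 with arrays scaled to the same median absolute deviation, 0.18 (3′ minus 5′ covariate) and 0.75 (array weights) for AT2G47880 in nhx5-1/nhx6-1, and -2.25 (covariate) for MSRB6 in nhx5-1/nhx6-1. With 1 array left out, AT1G06830 ranged from -1.09 to -1.03 in nhx5-2/nhx6-2 and -1.19 to -1.07 in nhx5-1/nhx6-1, AT2G47880 from 0.74 to 1.02 and 0.25 to 0.58, and MSRB6 from -1.44 to -0.82 and -1.50 to -1.26. The CC-type count in nhx5-2/nhx6-2 (3) was 0 after a shift to the same median, 1 with the replicate block and 6 with array weights, and 0 to 3 with 1 array left out. In nhx5-1/nhx6-1 (4) it was 0 with the covariate or the compared groups alone, 2 with array weights or without both arrays of low SD, and 1 to 3 with 1 array left out. The CPYC and CGFS count in nhx5-2/nhx6-2 (1) was 3 with array weights and 1 to 3 with 1 array left out; in nhx5-1/nhx6-1 (2) it was 0 with the covariate or the compared groups alone, 1 after the median shift, with array weights or without both arrays of low SD, and 0 to 2 with 1 array left out. The methionine sulfoxide reductase count was 2 with array weights in nhx5-2/nhx6-2, and in nhx5-1/nhx6-1 1 with quantile normalization, scaling, the dim filter or without both arrays of low SD, and 0 to 1 with 1 array left out. Over all probe sets, 1166 were called higher and 1570 lower in nhx5-1/nhx6-1 against wild type, and 629 and 1994 after the median shift. In nhx5-2/nhx6-2 (2232) the total was 1840 after the median shift, 2055 with the block and 7661 with array weights. In nhx5-1/nhx6-1 (2736) it was 24 with the covariate, 1149 with the compared groups alone and 2212 with array weights. There it was 3483 with quantile normalization, 3972 with scaling, 3125 with the dim filter and 3843 without both arrays of low SD. With 1 array left out the totals were 1165 to 3167 and 1479 to 3182. The family counts are read against these totals. The causes were not tested. Replicate numbers did not pair the arrays: of 30 same-numbered pairs 6 had deviations correlated above 0.1, and 3 of 15 arrays correlated best with their own number.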
